A study of Homo sapiens with 14 samples.

Results

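The leukocyte integrin genes *ITGAL*, *ITGAM*, *ITGAX*, *ITGB2*, *ITGA4*, *ITGA5*, *ITGB1* and *ITGB7* were followed through 4 ChIP-seq peak lists of HL60, an established human cell line of acute myeloid leukaemia. A peak belonged to one of these genes when the authors' annotation named that gene for the nearest transcript. This chose 82 of 88872 listed peaks, and 8 of the 24510 genes named in any list. The lists were SKI in CRISPR/Cas9 control HL60 cells (1 list), SKI in unmodified HL60 cells (replicates 1 and 2) and RUNX1 in unmodified HL60 cells (1 list). All cells were grown in RPMI with 10% serum, and no treatment is labelled. The labels do not say whether the control cells are a single clone or a pool. Of the 14 samples, the 10 others, among them cells with SKI deleted and IgG controls, were not analysed here. Any SKI-independent part of the signal therefore remains in the peaks described. Peak lists hold no expression values, so the identity of the cells was not checked against marker genes.

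Integrins are cell surface adhesion receptors built from 1 alpha and 1 beta chain. *ITGB2* encodes the beta chain that pairs with the alpha chains of *ITGAL*, *ITGAM* and *ITGAX* to form the adhesion receptors of lymphocytes, neutrophils and monocytes, and surface ITGAM is widely used to follow myeloid maturation of HL60. *ITGA4* pairs with *ITGB1* or *ITGB7* to bind VCAM1, fibronectin or MADCAM1, and *ITGA5* pairs with *ITGB1* to form the classical fibronectin receptor. SKI is a corepressor that reaches DNA through partner proteins such as SMADs, whereas RUNX1 binds DNA itself.

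The lists held 14019 (SKI, control cells), 54841 (SKI, unmodified, replicate 1), 14431 (SKI, unmodified, replicate 2) and 5581 peaks (RUNX1). The median peak of these lists rested on 61, 97, 56 and 56 tags, and the library depth is not given in the sources used here. The list of replicate 1 was far longer than the others, so counts are set beside the share of all features of the same list. Fold enrichment is the authors' ratio of tags over background in a peak. It is used as a rank within its own list, given as a percentile that is highest for the strongest peak. These ranks depend on the measure: the median percentile of the strongest peak of the genes was 67.2 in control cells, 92.3 and 72.2 in replicates 1 and 2 of unmodified cells and 72.1 for RUNX1, and by tags 39.9, 87.7, 37.1 and 29.2. With 1 list per kind of sample, other than SKI in unmodified cells, no test between groups was possible, and differences are described without p-values. Nothing in the labels says whether the lists of unmodified cells came from separate cultures. Positions are on hg19, and the distance to a transcription start site (TSS) runs from the peak summit along the transcribed strand, negative meaning upstream.

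The sequence just upstream of the start site is shown for 3 genes whose start sites carried SKI peaks. The RUNX1 peak of *ITGA4* had its summit at -434 bp from an annotated start, farther than the 250 bases printed. The sequences are RefSeq promoters of build GRCh38.p14, 250 bases up to the TSS and read 5′ to 3′ on the gene's strand, with the ETS core GAGGAA (the motif searched for PU.1, a myeloid factor, on both strands) and the RUNX core TGTGGT (both strands) set in capitals. The table matched 5 of the 8 genes with 6 promoters. *ITGAL*, *ITGAX* and *ITGB2* were not matched.
ITGAM, chr16:31259725-31259974, plus strand: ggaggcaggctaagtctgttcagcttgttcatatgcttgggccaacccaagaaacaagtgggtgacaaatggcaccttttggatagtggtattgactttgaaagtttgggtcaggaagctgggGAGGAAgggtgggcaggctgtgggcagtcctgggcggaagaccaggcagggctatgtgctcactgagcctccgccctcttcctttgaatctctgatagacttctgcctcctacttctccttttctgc
ITGA4, chr2:181457136-181457385, plus strand: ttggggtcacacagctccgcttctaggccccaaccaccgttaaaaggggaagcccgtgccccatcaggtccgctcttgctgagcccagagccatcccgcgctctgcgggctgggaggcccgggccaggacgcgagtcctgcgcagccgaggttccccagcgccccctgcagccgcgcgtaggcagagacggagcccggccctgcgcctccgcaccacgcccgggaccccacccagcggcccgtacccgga
ITGA5, chr12:54419267-54419516, minus strand: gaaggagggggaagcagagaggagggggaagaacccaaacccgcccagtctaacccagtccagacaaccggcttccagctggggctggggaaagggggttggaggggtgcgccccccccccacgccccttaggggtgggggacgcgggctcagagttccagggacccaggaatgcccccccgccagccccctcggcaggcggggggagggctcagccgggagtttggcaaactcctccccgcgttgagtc

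The *ITGAM* window was 53.2% G and C, against 72.8% in that of *ITGA4* and 70.0% in that of *ITGA5*. The ETS core lay in the *ITGAM* window at -127 to -122 and was also present upstream of *ITGB1* (-184 to -179, in 1 of its 2 listed promoters) and *ITGB7* (-28 to -23, other strand). It was present in 23.6% of all 35116 promoters of the same length. The RUNX core, present in 11% of them, was in none of the 6 windows, nor were the SMAD boxes GTCTAGAC (0.182% of promoters) and GGCGCC (16.4%). These are matches of letters in these windows and say nothing about factors bound elsewhere. The RefSeq start sites need not be those named in the peak lists.

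All 8 genes had at least 1 SKI peak in each of the 3 SKI lists, as did 28.1% of all genes named. By list, 38% of the named genes had a peak in control cells, 97.7% in unmodified cells, replicate 1, and 38% in replicate 2. The 8 genes held 20 SKI peaks in control cells, 38 in unmodified cells, replicate 1, and 18 in replicate 2. That is 2.50, 4.75 and 2.25 peaks per gene, where a gene named in these lists had 1.51, 2.29 and 1.55 on average. *ITGB2* alone held 8 of the 20, 10 of the 38 and 7 of the 18. The averages of the 8 genes thus rest in large part on 1 gene, most of all in control cells and replicate 2. The RUNX1 list held 6 peaks of 3 of the genes, *ITGB2* (4), *ITGA4* (1) and *ITGB7* (1). Of all genes named, 17.2% had a RUNX1 peak, and of the 13808 protein-coding ones 17.1%. The alpha chain genes *ITGAL*, *ITGAM*, *ITGAX* and *ITGA5* and the beta chain gene *ITGB1* had none.

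**Figure D1:**
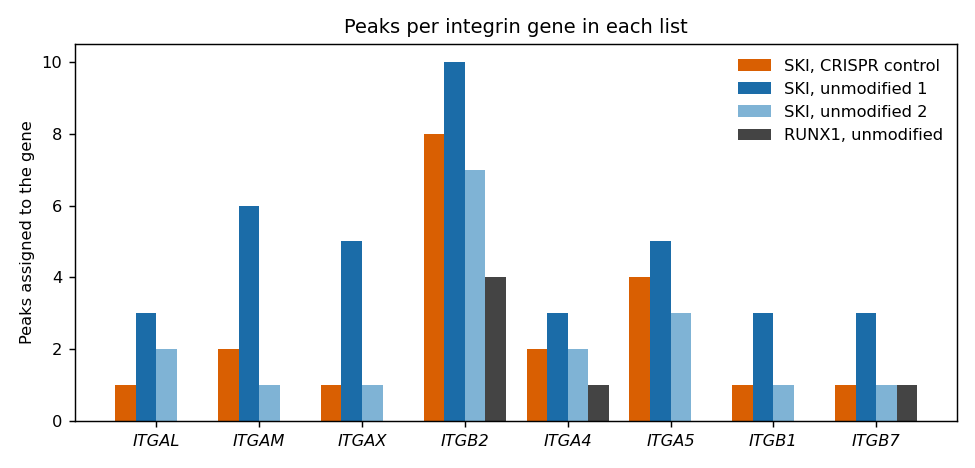
Number of peaks whose nearest transcript belongs to each integrin gene (vertical axis), for the SKI lists of CRISPR control cells and of unmodified cells (replicates 1 and 2) and the RUNX1 list of unmodified cells. ITGB2 had the most peaks in each of the 4 lists (8, 10, 7 and 4), and RUNX1 bars are present at ITGB2, ITGA4 and ITGB7.

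Joining overlapping SKI peaks of the 3 lists gave 41 sites at these genes, of which 12 held a peak of every SKI list and are called shared. Over all 55146 sites the shared ones were 16.3%. Shared sites were present at 7 of the 8 genes, where 29.8% of all named genes and 35.9% of the protein-coding ones had one. *ITGB2* had 5, *ITGA5* had 2, and *ITGAL*, *ITGAM*, *ITGA4*, *ITGB1* and *ITGB7* had 1 each. *ITGAX* had none. A further 21 sites were in a single list, 20 of them in the long list of replicate 1, and 8 were in a pair of lists. Of the single peaks, 14 of 20 in control cells, 11 of 38 in replicate 1 and 14 of 18 in replicate 2 lay in a shared site, against 70.7%, 16.5% and 73.2% of all peaks of these lists. In control cells and replicate 2 the integrin peaks were thus shared about as often as other peaks. With every SKI list shortened to 5581 peaks, 2 shared sites were left, 1 each at *ITGA5* and *ITGB2*.

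Peaks of these genes were mostly at start sites. The authors' TSS class held 14 of 20 SKI peaks in control cells, where it held 48% of the whole list. It held 21 of 38 in unmodified cells, replicate 1 (35.2% of the list), and 15 of 18 in replicate 2 (52.4%). For RUNX1 it held 5 of 6, against 23.5% of the list. The remaining SKI peaks were intronic (3, 9 and 1 in the 3 lists), intergenic (2 in each), exonic (1, 1 and 0) or in the class 5000 bp upstream (5, all in replicate 1). Over the whole lists the intronic share was 25.1%, 30.5% and 22.3%, the intergenic share 17.5%, 22.5% and 16.2%, the exonic share 4.33%, 5.52% and 3.78% and the upstream share 5.0%, 6.27% and 5.27%. Measured by summit, 11, 16 and 12 SKI peaks (55%, 42.1% and 66.7%) lay within 1000 bp of a TSS, where 43.0%, 30.0% and 48.5% of all peaks did. These classes count every annotated transcript, and the lists named 10 different *ITGB2* transcripts but 2 of *ITGB1*, so a gene with many annotated starts has more room for the class.

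*ITGB2*, the common beta chain gene of the leukocyte integrins, had the most peaks of the 8. It had 8 SKI peaks in control cells, 10 in unmodified cells, replicate 1, and 7 in replicate 2. Only 18 of 6131 protein-coding genes had more peaks in the control list, 224 of 13533 in replicate 1 and 36 of 6341 in replicate 2. In the RUNX1 list its 4 peaks were exceeded by 18 of 2360 protein-coding genes. The shared sites ran along chromosome 21 from 11 kb upstream to 39.0 kb downstream of the start site of the transcript ENST00000397854.

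**Figure D2:**
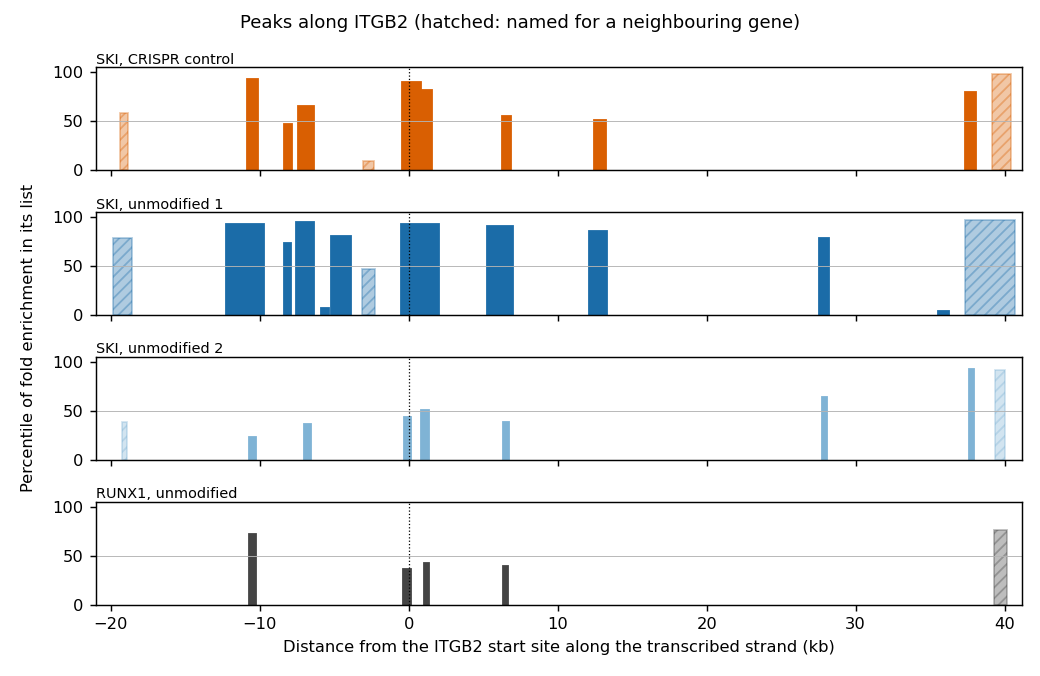
Peaks along ITGB2 in each list, at their distance in kb from its start site (dotted line, positive downstream), narrow peaks widened to be visible and bars as high as the percentile of fold enrichment within that list. Hatched bars are peaks within 10 kb of an ITGB2 start site that the authors named for another gene. The 4 RUNX1 peaks of ITGB2 each stand over a SKI peak in all 3 SKI lists, and the SKI bars of unmodified cells, replicate 2, are lower near the start site than those of the other lists.

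The main *ITGB2* start site lay in a shared site at chromosome 21, 46338714 to 46341274, which held 2 RUNX1 peaks. Its strongest SKI fold enrichment was 28.8 in control cells (percentile 89.7, 204 tags), against 67.3 in unmodified cells, replicate 1 (92.7, 1297 tags), and 10.4 in replicate 2 (50.7, 54 tags). The summits of these peaks lay at 25, -3 and 1260 bp. In replicate 2 a separate peak on the start itself had a fold enrichment of 9.43 (percentile 43.4, 65 tags). The RUNX1 peaks had fold enrichments of 16.6 (percentile 43.0, at 1255 bp) and 15.1 (37.0, at 9 bp). The start site region thus ranked near the top of the lists of control cells and replicate 1 and at the middle of that of replicate 2, while both RUNX1 peaks were in the lower part of their list.

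A second shared site with RUNX1 lay 11 kb upstream of that start site, in the TSS class of an *ITGB2* transcript that starts further upstream (46350498 to 46353023). SKI fold enrichment was 34.9 in control cells (percentile 92.9, 117 tags), against 69.3 in replicate 1 (93.2, 707 tags) and 7.04 in replicate 2 (23.2, 50 tags) of unmodified cells. The RUNX1 peak was the strongest of those named for the gene, with a fold enrichment of 27.3 (percentile 72.1, 43 tags). This was the strongest peak named for *ITGB2* in control cells and the weakest of replicate 2, so the lists disagree on its rank. A site 6.1 kb downstream (46333783 to 46335541) had SKI fold enrichments of 12.7 in control cells, against 60.5 and 8.84 in replicates 1 and 2 of unmodified cells, and a RUNX1 fold enrichment of 15.5.

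The last *ITGB2* site with RUNX1 lay between *ITGB2* and its neighbour *PTTG1IP* (46300095 to 46303427). Here SKI fold enrichment was 61.8 in control cells (percentile 98.1), against 91.7 in replicate 1 (97.1) and 27.9 in replicate 2 (92.4) of unmodified cells. The RUNX1 peak had a fold enrichment of 30.0 (percentile 76.8, 92 tags). It was the best ranked integrin site in all 3 SKI lists, but its assignment is divided. In control cells the strongest peak was named for *PTTG1IP*, and a weaker one, of 20.6, for *ITGB2*. In replicate 2 the peak of 27.9 was named for *ITGB2* and one of 26.6 for *PTTG1IP*. In replicate 1 a single wide peak named for *PTTG1IP* spanned both, and the RUNX1 peak was named for *PTTG1IP* and overlapped the *PTTG1IP* part. Without this site *ITGB2* had 4 shared sites, 3 of them with RUNX1.

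The fifth shared site of *ITGB2*, 6.9 kb upstream of the main start site (46347096 to 46348339), carried no RUNX1 peak. Its SKI fold enrichment was 15.2 in control cells (percentile 65.8), against 78.9 in replicate 1 (95.3, the strongest peak named for *ITGB2* there) and 8.55 in replicate 2 (36.5) of unmodified cells. Of the remaining *ITGB2* sites, 3 were in a pair of SKI lists and 3 in replicate 1 alone, with no RUNX1 peak.

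The alpha chain partners of *ITGB2* had at most 1 shared site each and no RUNX1 peak. *ITGAL*, the alpha chain gene of the lymphocyte function receptor, had 1, 3 and 2 SKI peaks in the 3 lists. The shared one sat on its start site (chromosome 16, 30483584 to 30484424), with summits at 9, -29 and 24 bp. Fold enrichment was 18.2 in control cells (percentile 74.8, 50 tags), against 77.0 in replicate 1 (95, 387 tags) and 16.7 in replicate 2 (77.8, 86 tags) of unmodified cells. Among the integrin sites it was the one on which the 3 lists came closest together at a high rank of fold enrichment, from 66.8 to 75.7 as percentiles among the 8980 shared SKI sites. Ranked by tags within each list the same peaks stood further apart, at 36.3 in control cells, against 87.6 and 75.4 in replicates 1 and 2.

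*ITGAM* encodes the alpha chain used as a marker of neutrophil and monocyte maturation. It had 2 SKI peaks in control cells, against 6 in replicate 1 and 1 in replicate 2 of unmodified cells. The start site, whose upstream sequence is printed above, had a peak in control cells (fold enrichment 17.8, percentile 73.8, 80 tags, summit at -6 bp) and in replicate 1 (51.8, 87.4, 267 tags, -60 bp), and no listed peak in replicate 2. The shared site was intergenic, 15.7 kb upstream (chromosome 16, 31255137 to 31256011). Its fold enrichment was 9.79 in control cells (percentile 37.4, 45 tags), against 82.5 in replicate 1 (95.9, 280 tags) and 18.0 in replicate 2 (80.9, 40 tags) of unmodified cells. By fold enrichment the upstream site was therefore high in both lists of unmodified cells and below the middle in control cells. Ranked by tags its percentile was 28.4 in control cells, against 80.7 in replicate 1 and 20.9 in replicate 2, so replicate 2 no longer stood above control cells. The start site was absent from 1 of the lists of unmodified cells.

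*ITGAX*, the alpha chain gene of dendritic cell and macrophage integrin, had no shared site. Its start site had a peak in replicate 1 (fold enrichment 35.3, percentile 77.0, 393 tags) and a weak one in replicate 2 (5.50, 8.58, 39 tags), and none in control cells. An intronic site about 13.0 kb downstream (31379036 to 31379806) had a fold enrichment of 11.6 in control cells (percentile 49.4, 33 tags), against 72.7 in replicate 1 of unmodified cells (94.1, 201 tags), and no peak in replicate 2. No 3-list site therefore stood at *ITGAX*, and its 3 remaining sites were in replicate 1 alone. *ITGAM* and *ITGAX* are neighbours on chromosome 16, and the authors' nearest transcript decides which of them a peak between them is counted for.

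**Figure D3:**
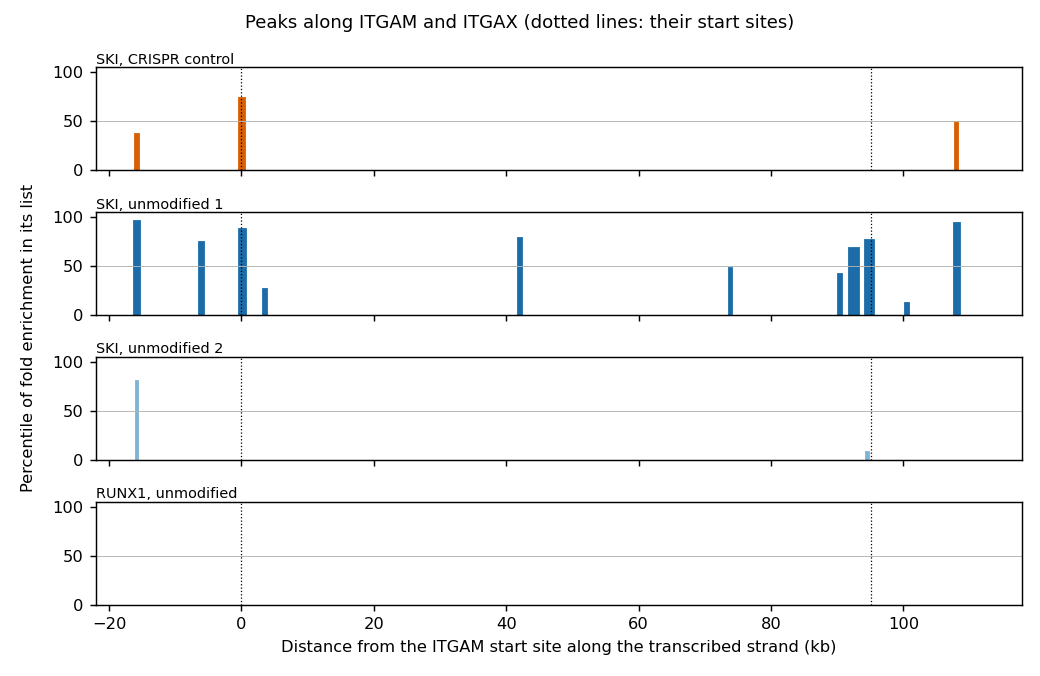
Peaks named for ITGAM or ITGAX in each list, at their distance in kb from the ITGAM start site (dotted lines mark both start sites, positive downstream), with bar height the percentile of fold enrichment within that list. The site 15.7 kb upstream of ITGAM is present in all 3 SKI lists, the ITGAM start site in control cells and unmodified cells, replicate 1, and the RUNX1 panel is empty.

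*ITGA4*, the alpha chain gene of the receptor for VCAM1, had a shared site across its start site that overlapped the strongest RUNX1 peak of the 8 genes (chromosome 2, 182321111 to 182323266). The RUNX1 peak had a fold enrichment of 31.8 (percentile 79.3, 71 tags, summit at -434 bp). SKI ranked below the list median there in control cells and replicate 2 and above it in replicate 1. Its fold enrichment was 9.69 in control cells (percentile 36.7, 55 tags), against 23.7 in replicate 1 (61.7, 598 tags) and 8.44 in replicate 2 (35.8, 48 tags) of unmodified cells. In replicate 2 that SKI summit lay 29 bp from the RUNX1 summit, with another SKI peak of 8.15 at 13 bp from a TSS. In control cells and replicate 1 the nearest SKI summit was 597 and 534 bp from it. The overlap in those lists thus joined summits at different places. The strongest peak named for *ITGA4* in replicate 1 (58.0) was in the intronic class, 118.5 kb downstream of the start of ENST00000397033, and in no other list. The class does not say to which gene the intron belongs.

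*ITGB7*, the beta chain gene that pairs with *ITGA4* in gut homing, had a shared SKI site about 1.1 kb downstream of its start (chromosome 12, 53599483 to 53600364), without RUNX1. Fold enrichment was 9.61 in control cells (percentile 36.2), against 25.3 in replicate 1 (64.6) and 8.46 in replicate 2 (35.9) of unmodified cells. Its RUNX1 peak lay upstream, with its summit at -1834 bp (fold enrichment 20.2, percentile 55.5, 44 tags). It overlapped a SKI peak in replicate 1 alone (fold enrichment 26.99, percentile 67.3), with summits 5 bp apart. The SKI peak that carried RUNX1 thus ranked above the median of its list.

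The fibronectin receptor genes had shared SKI sites and no RUNX1 peak. *ITGA5* had 4, 5 and 3 SKI peaks in the 3 lists. At the start of its transcript ENST00000547744 (chromosome 12, 54806705 to 54808153) the fold enrichment was 21.3 in control cells (percentile 81.0, 137 tags), against 52.8 in replicate 1 (87.9, 690 tags) and 13.3 in replicate 2 (66.7, 102 tags) of unmodified cells. All 3 lists ranked this site above their median. A second shared site about 1.5 kb downstream of that start (54804810 to 54806592) had 11.6 in control cells, against 43.9 and 9.51 in replicates 1 and 2. A site 5.5 kb upstream of it (54811877 to 54813525) lay at the most upstream *ITGA5* start named in the lists, that of ENST00000435631. It was in control cells (10.5, percentile 42.1, summit at -8 bp) and replicate 2 (7.26, 25.2, -95 bp). The long list had no peak there, nor at a site found in control cells alone (17.2). *ITGB1*, the widely expressed beta chain gene, had 1 shared site, at an annotated start (chromosome 10, 33246190 to 33247716). Its fold enrichment was 13.8 in control cells (percentile 60.6, 38 tags), against 32.5 in replicate 1 (74.2, 269 tags) and 18.8 in replicate 2 (82.6, 47 tags). The strongest *ITGB1* peak of replicate 1 (59.6, percentile 90.5) lay elsewhere, 47.4 kb upstream of that start at another annotated TSS, and was in neither of the other lists.

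The next question was how often SKI peaks at these genes carried RUNX1. In control cells 5 of 20 did (25.0%, 95% Wilson interval 11.2 to 46.9, counting error only), where 27.8% of the list did. In replicate 1 of unmodified cells it was 5 of 38 (13.2%, 5.75 to 27.3), where 9.21% of the list did, and in replicate 2 it was 5 of 18 (27.8%, 12.5 to 50.9), where 23.9% did. These shares lie near those of the whole lists. All were in the TSS class except the *ITGB7* peak of replicate 1. Within that class 5 of 14, 4 of 21 and 5 of 15 peaks overlapped RUNX1, where 15.7%, 6.81% and 12.8% of all TSS-class peaks did. Outside that class 0 of 6, 1 of 17 and 0 of 3 did, where 39.1%, 10.5% and 36.2% of all peaks outside it did. The peaks with RUNX1 were of *ITGB2* (4, 3 and 4 in the 3 lists), *ITGA4* (1 in each) and *ITGB7* (1 in replicate 1). Peaks of 1 gene share their locus and are not independent, so these shares rest on 3 genes. By site, 5 of the 12 shared sites held a RUNX1 peak, where 33.5% of all shared SKI sites did. By gene, 2 of 8 had such a site, against 10.6% of all named and 11% of protein-coding genes. In the other direction, 5 of the 6 integrin RUNX1 peaks were inside a shared SKI site, as were 56.2% of the RUNX1 list.

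SKI peaks with RUNX1 were not ranked alike in the 3 lists. Their median percentile was 81.5 against 51.4 without RUNX1 in control cells, and 90.7 against 74.2 in unmodified cells, replicate 1. In replicate 2 it was 38.9 with RUNX1 and 44.0 without. Over all peaks of these lists the medians with and without RUNX1 were 72.8 and 41.7, 89.5 and 45.9, and 71.1 and 43.8. By fold enrichment the 5 integrin peaks with RUNX1 in replicate 2, of *ITGB2* and *ITGA4* only, were therefore not the higher ones, unlike the peaks of the list as a whole. The medians were not compared by tags. At each *ITGB2* site with RUNX1, the nearest pair of SKI and RUNX1 summits lay between 1 and 61 bp apart in all 3 lists. The main start site has 2 RUNX1 summits, and in replicate 1 its single SKI summit is near only the one at the start.

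Ranked among all 8980 shared SKI sites, 9 of the 12 integrin sites stood higher in control cells than in replicate 2 of unmodified cells, where 50.1% of all shared sites did. Higher in control cells than in replicate 1 were 8 of 12 (50.7% of all), and higher in replicate 1 than in replicate 2 were 7 of 12 (50% of all). The *ITGB2* sites account for 5 of those 9. At its main start site the percentile among shared sites was 85.2 in control cells, against 66.3 and 38.4 in replicates 1 and 2 of unmodified cells. The replicate 2 value there comes from the peak with its summit 1260 bp downstream of the start. At the site 11 kb upstream the percentile among shared sites was 89.8 in control cells, against 68.4 and 14.8. The opposite order was seen at the *ITGAM* upstream site, with 29.1 in control cells, against 79.6 and 72.7. Ranks by tags within the lists did not keep that order for replicate 2. At *ITGB1* control cells, with 51.4, stood between replicate 1 (23.2) and replicate 2 (75). Ranked within the whole lists, control cells were lowest at that site, with 60.6 against 74.2 and 82.6 by fold enrichment. By tags they had 14.3 there, against 79.8 and 36.1. At the *ITGB2* site 11 kb upstream the lists of unmodified cells also stood far apart (68.4 and 14.8). At the *ITGAM* upstream site they stood close together by fold enrichment but not by tags. With 1 list of control cells, no difference from unmodified cells could be tested. Integrin peaks had a median width of 743 bp in control cells, against 806 and 383 bp in replicates 1 and 2 of unmodified cells, and all peaks of these lists one of 691, 710 and 472 bp. The part of width in these ranks was not tested.

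**Figure D4:**
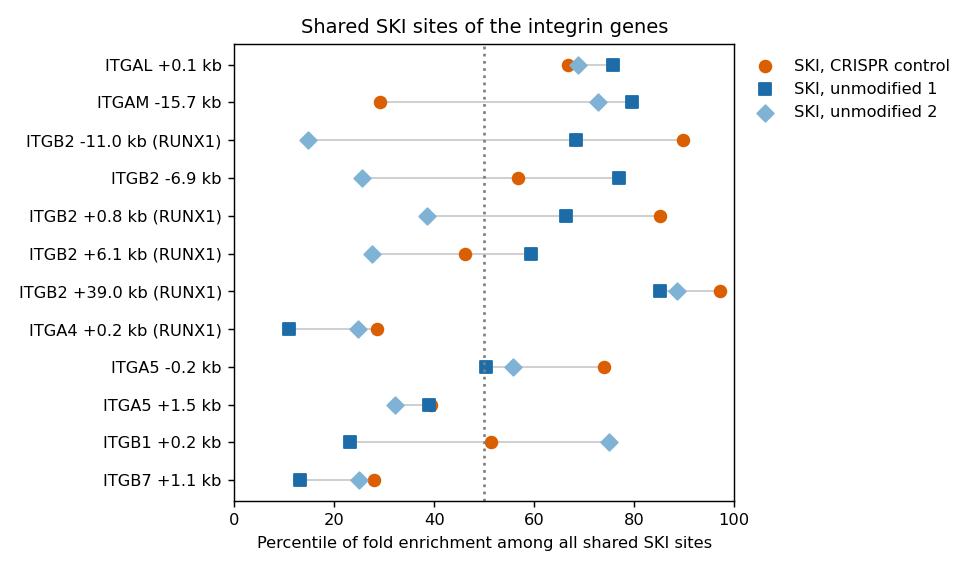
Percentile of SKI fold enrichment among all 8980 shared SKI sites for the 12 shared sites of the integrin genes, in CRISPR control cells and in replicates 1 and 2 of unmodified cells. Labels give the distance in kb of the site centre from an annotated start site of the gene, and sites with a RUNX1 peak are marked. The dotted line is the middle of all shared sites. The ITGB2 sites stand higher in control cells than in replicate 2, ITGAL differs little between lists, and ITGA4 and ITGB7 stand low in all 3.

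The pattern of *ITGB2* was compared with that of all 2824 genes present in the 4 lists, by the percentile of the strongest peak in each list. *ITGB2*, with 92.9, 95.3, 92.4 and 72.1, ranked 562nd by the mean over the lists. These 4 values are not of 1 site. They come from the site 11 kb upstream (control cells and RUNX1), the site 6.9 kb upstream (replicate 1) and the site divided with *PTTG1IP* (replicate 2, 55 tags). The next strongest peak named for *ITGB2* in replicate 2 had a fold enrichment of 12.8 (percentile 64.2). The 3 genes nearest to it were *LRRC16A*, *RNU6-765P* and *NFIA*, at Euclidean distances of 1.89, 3.17 and 4.13 percentile points over the 4 lists.

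Other genes of integrin biology were counted by role. Of the 18 other integrin chain genes, 15 were named in the lists and 4 had a shared SKI site, *ITGAV*, *ITGA1*, *ITGB4* and *ITGA7*. *ITGAV*, the alpha chain gene of vitronectin receptors, had the strongest (fold enrichment 52.2 in control cells, against 165.8 and 65.3 in replicates 1 and 2 of unmodified cells), above every site of the 8 leukocyte genes in replicates 1 and 2. RUNX1 peaks were at 2 of the 18, *ITGA1* and, named here after its values were seen, *ITGA6*. Of 30 genes that regulate integrin activation or link integrins to actin and kinases, 28 were named, 19 had a shared SKI site and 14 had a RUNX1 peak. The highest ranked shared sites were at *FLNA*, the gene of filamin (51.0 in control cells, against 123 and 37.1 in unmodified cells, RUNX1 43.5), *LIMS1* (41.4 in control cells, against 107 and 31.4, no RUNX1), *RASGRP2*, an activator of the RAP1 switch (41.98 in control cells, against 106 and 38.0, RUNX1 17.3), and *APBB1IP*, which brings talin to integrins (48.9 in control cells, against 163 and 28.0, no RUNX1). Of 16 ligand genes, 11 were named, 7 had a shared SKI site and 4 a RUNX1 peak. The highest ranked were at *C3*, a complement ligand gene (57.5 in control cells, against 93.6 and 47.2, without RUNX1 at this site and with RUNX1 at another shared site), *SPP1*, *ICAM1* and *F11R*. *ICAM1*, the main ligand of the *ITGAL* and *ITGB2* receptor, had 23.3 in control cells, against 76.1 and 22.7 in unmodified cells, and a RUNX1 fold enrichment of 13.8. Of the genes named, 26.7%, 67.9% and 63.6% in the 3 groups had a shared site, beside 35.9% of all protein-coding genes named. A RUNX1 peak was at 13.3%, 50% and 36.4% of them, beside 17.1%. The lists were chosen from general knowledge with earlier results of these data known, and no test was made of them.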

How the data were processed

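Peak lists of 4 ChIP-seq samples were used, 1 per sample, grouped by sample title. The builds named are hg19 and GRCh37, and the tools named are MACS 1.4, Bowtie2, deepTools and bcl2fastq, per the submitters' processing notes, which give no role for each. The control library of each list is not given in the sources used here. Each deposited peak carries a count of tags, a fold enrichment (a ratio to background) and a −log p-value, per the file headers. The headers do not state the base of the logarithm, and the value is read here as −log10 p. The smallest deposited −log10 p-value in any list is about 5.00. The deposited FDR column was not used. Position class, nearest transcript, gene name and summit distance were read as deposited.

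Sites were built by merging SKI peaks that overlapped by 1 bp or more, and overlap with RUNX1 used the same rule. Percentiles are ranks of fold enrichment within a list. TSS positions were rebuilt from deposited distances (median per transcript). Overlap code was tested on simulated data. Counts of the genes are read against all features, and no chance test was made. The genes and lists were chosen with earlier results of these data known. Values are named for all 8 genes and for up to 4 genes per further list, by the smallest worst rank over the SKI lists. Alternatives were a stricter threshold, equal list lengths, leaving out a SKI list, other overlap rules, rebuilt TSSs and other ranks. Shares carry 95% Wilson intervals. Python 3.11.15, pandas 2.3.3, numpy 2.4.6, scipy 1.17.1 and matplotlib 3.10.9 were used.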

Additional observations from a re-analysis of the deposited data

How the results depend on the processing

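With each list cut to the 5581 peaks that had the largest −log10 p, the integrin genes held 9 SKI peaks in control cells and 6 and 5 in replicates 1 and 2 of unmodified cells, and 2 shared sites at 2 genes, *ITGA5* and *ITGB2*. This setting leaves fewer peaks. Leaving out 1 SKI list at a time gave 14 to 16 shared sites at 7 to 8 genes, with *ITGAX* gaining one without control cells or without replicate 2. With −log10 p of at least 10, *ITGB7* lost its shared site. The median percentile of the strongest peak per gene was 67.2 in control cells, 92.3 and 72.2 in replicates 1 and 2 of unmodified cells and 72.1 for RUNX1. Ranked by −log10 p it was 48.7, 89.2, 65.4 and 46.3, and by tags 39.9, 87.7, 37.1 and 29.2, in the same order, and the cause was not tested. Of the ranks of single genes, 50 of 54 values moved with the measure. Counts, shares with RUNX1 and TSS shares moved by less than 1.5 times under the other alternatives. No paired analysis was possible because the titles of these lists have only the number 1 in common. The weakest SKI peaks of these genes held 31 to 33 tags. A site missing from a list had no listed peak there, which does not show that SKI was absent.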

Other observations

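Some peaks near the integrin genes were named for other genes by the authors. Within 10 kb of an integrin TSS there were 6 such SKI peaks in control cells, 10 and 6 in replicates 1 and 2 of unmodified cells, and 2 RUNX1 peaks. At the far upstream side of *ITGA5*, the long noncoding RNA gene RP11-753H16.4 had a shared SKI site with RUNX1. Its SKI fold enrichments were 36.2 in control cells, against 61.4 and 33.6 in unmodified cells, and its RUNX1 fold enrichment was 14.1. In all 3 SKI lists it was stronger than any peak named for *ITGA5*. Just upstream of *ITGAL*, a SKI site named for a Y_RNA gene was in all 3 lists, with fold enrichments of 9.30 in control cells, against 68.8 and 9.62 in unmodified cells. Inside the *ITGB2* locus, a peak was named for the antisense gene ITGB2-AS1 in control cells (6.20) and in replicate 1 (17.7), and in neither case did it overlap RUNX1. A SKI peak of replicate 1 near *ITGB7* was named for *RARG*, a retinoic acid receptor gene (24.3).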
